A study of Homo sapiens with 8 samples.

Results

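The partners of MYC in its own transcription factor network were followed in D283-OMO cells: the paralogs MYCN and MYCL, the obligate partner MAX, the MAX-binding repressors MXD1, MXD3, MXD4, MXI1 and MNT, the large MAX partner MGA, and the MAX-like factor MLX. These 10 genes, of 60668 in the deposited count tables, were taken by their Ensembl identifiers from a list that leaves MYC itself out. D283 MED is a medulloblastoma cell line, and D283-OMO cells carry a lentiviral, doxycycline (DOX)-inducible and Flag-tagged OMOMYC transgene, a dominant-negative mini-protein derived from MYC. The 8 libraries of polyA+ RNA were 4 untreated replicates (OMO) and 4 replicates in which OMOMYC was induced with 0.25 µg/mL DOX for 72 h (OMO+DOX), described as independent biological replicates. All 8 libraries came from cells with the transgene and none from DOX-treated cells without it, so an effect of DOX itself and one of OMOMYC cannot be told apart here.

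MAX is the hub of the network, because MYC, MYCN and MYCL bind DNA as heterodimers with it. Members of the MXD family, MNT and MGA compete for the same partner, and their dimers with MAX recruit repressor complexes to the E-boxes that MYC-MAX dimers activate. MLX is the hub of a parallel arm, in which it pairs with the glucose-sensing factors MLXIP (MondoA) and MLXIPL (ChREBP) and also with some MXD proteins and MNT. OMOMYC can form dimers with MYC and MAX and with itself.

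Of the 10 partners, 9 had enough RNA to be tested (more than 1 CPM, counts-per-million, in 4 or more of the 8 libraries), and MYCN did not. MXD3 fell about 5-fold (39.4 to 7.66 CPM) and MYCL about 2-fold (24.7 to 11.2 CPM) upon OMOMYC induction, while MAX, MXD1, MXD4, MXI1 and MLX rose by 28.4% to 43.5%. MNT and MGA did not pass the test. By edgeR's quasi-likelihood test (adjusted p below 0.05), 5 partners were called up and 2 down, where 76.6% of all 15222 genes tested were called, 38.5% up and 38.1% down. The 2 that fell also changed by more than 1 on the log2 scale and none of the risers did, where 20.9% of all genes were called with that added limit, 11.0% up and 9.81% down. The median log2 fold change (log2FC, OMO+DOX minus OMO) of the 9 was 0.36, against 0.01 for all genes tested. The study's methods set stricter thresholds (FDR of 0.001, log2FC beyond 2 in either direction), while its results text gives an FDR of 0.01. With the thresholds of the methods MXD3 was the only partner called, where 7.12% of all genes were, 4.38% up and 2.75% down. In 7 of the 9 the untreated and the DOX-treated libraries did not overlap, 5 higher and 2 lower, as in 71.7% of all genes tested, 36.3% higher and 35.4% lower. In such bulk samples, fewer cells that express a gene and less of its RNA per cell cannot be told apart.

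**Figure D1:**
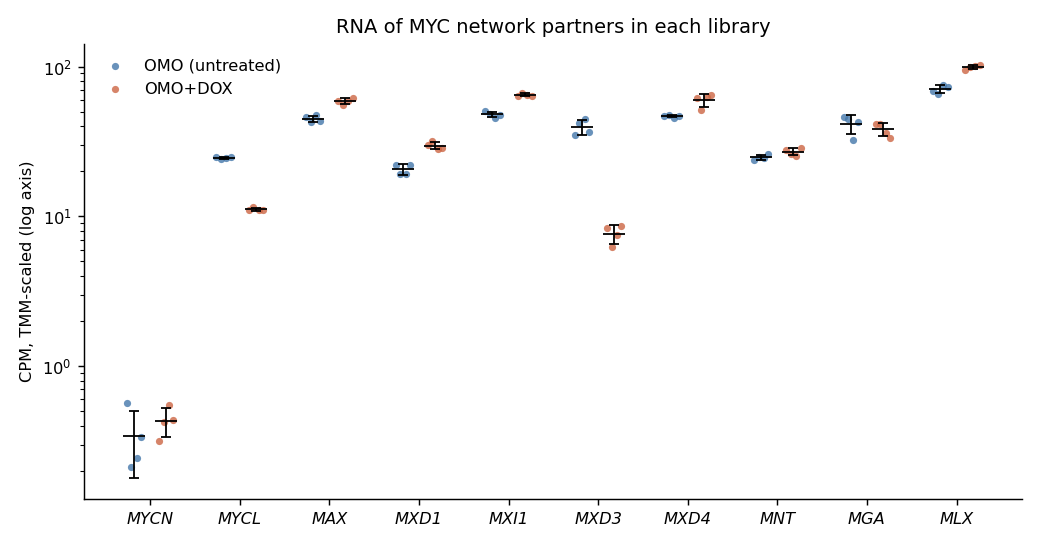
CPM of each partner in every library on a log axis, scaled with edgeR's TMM factors, with blue points for the 4 untreated and red points for the 4 OMO+DOX libraries and black bars for the mean and SD. MXD3 and MYCL lie lower with DOX in every library, and MYCN lies below 1 CPM in all 8.

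Total counts per library ranged from 38390696 to 54020506, and 3 counts, taken as the floor of detection with regard to counting error alone, equal 0.0555 to 0.0781 CPM. MYC RNA, which may include reads of the transgene, stood at 939 ± 75.6 CPM in untreated and 1123 ± 56.8 CPM in DOX-treated cells (SD, n = 4 each), with 1 pair of libraries crossing between the groups. CAD and NCL, which the study used as MYC targets, fell from 162 ± 4.07 to 116 ± 4.74 CPM and from 1554 ± 58.6 to 1145 ± 5.73 CPM (SD, n = 4 each). All 6 markers of Group 3 medulloblastoma examined were expressed, OTX2 among them. Their summed level was 2925 to 3126 CPM in untreated and 1216 to 1247 CPM in DOX-treated libraries. Of the 6, 5 were called down and 1 up, where 38.1% of all genes tested were called down and 38.5% up. The 1 called up, named here after its values were seen, was EYS, which rose from 14.3 ± 2.10 to 16.7 ± 0.606 CPM (SD, n = 4 each, edgeR adjusted p = 0.0460). Markers of fibroblasts summed to between 20.9 and 24.9 CPM over all libraries, nearly all of it COL1A1, which was not called. The other fibroblast markers were below the filter. Named here after their values were seen, they fell in the fit without a filter on low counts. The log2FC was -4.10 for COL1A2, -5.52 for DCN and -2.44 for LUM, all at or below the floor with DOX. Immune markers summed to at most 0.561 CPM, endothelial ones to at most 3.67 CPM and glial ones to at most 0.857 CPM, with MOG at 0 in every library and PECAM1 and CD3E at or below the floor. The other endothelial markers, named here after their values were seen, went in opposite directions: VWF fell from 3.26 ± 0.332 to 1.24 ± 0.184 CPM, and CDH5 had 0 counts in all untreated libraries and stood at 1.85 ± 0.237 CPM with DOX (SD, n = 4 each). The part of such markers in the changes of the partners was not tested.

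The stretch of promoter that surrounds each start site was read for the canonical E-box CACGTG, the element that MYC-MAX and MXD-MAX dimers share. RefSeq (GRCh38.p14) lists 15 promoter windows of 300 bases for the 10 partners, from 250 bases before to 50 bases after a start. Of these, 3 windows hold the letters CACGTG (a palindrome, so both strands are covered), those of MLX, MNT and MXD4, against 7.26% of all 35116 windows in the same table. The first base of the match lies 50 bases before the start in MLX, 193 bases before it in MNT and 238 bases before it in MXD4. The shorter core CANNTG, which includes CACGTG, occurs in 10 of the 15 windows and in 68.7% of all windows. The windows of MXD3 and MYCL, which fell, hold no CACGTG, nor do those of MAX, MXD1 and MXI1, which rose. MNT was not called. The 3 windows with the E-box are shown with those of MXD3 and MYCL. Each runs 5′ to 3′ on the strand of its gene, with the E-box in capitals.
MLX, chr17:42566850-42567149, plus strand: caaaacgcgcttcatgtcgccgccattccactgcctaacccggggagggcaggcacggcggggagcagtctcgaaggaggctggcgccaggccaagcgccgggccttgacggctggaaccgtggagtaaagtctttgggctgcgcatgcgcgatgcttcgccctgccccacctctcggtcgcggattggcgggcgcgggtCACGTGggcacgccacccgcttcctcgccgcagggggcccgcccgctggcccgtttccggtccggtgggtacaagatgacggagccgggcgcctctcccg
MNT, chr17:2401011-2401310, minus strand: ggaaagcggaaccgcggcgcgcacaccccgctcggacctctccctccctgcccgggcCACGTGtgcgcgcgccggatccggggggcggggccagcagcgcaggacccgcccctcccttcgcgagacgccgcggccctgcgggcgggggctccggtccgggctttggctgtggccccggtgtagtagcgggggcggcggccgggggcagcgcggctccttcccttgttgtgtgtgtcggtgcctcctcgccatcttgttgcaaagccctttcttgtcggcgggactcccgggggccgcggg
MXD4, chr4:2262060-2262359, minus strand: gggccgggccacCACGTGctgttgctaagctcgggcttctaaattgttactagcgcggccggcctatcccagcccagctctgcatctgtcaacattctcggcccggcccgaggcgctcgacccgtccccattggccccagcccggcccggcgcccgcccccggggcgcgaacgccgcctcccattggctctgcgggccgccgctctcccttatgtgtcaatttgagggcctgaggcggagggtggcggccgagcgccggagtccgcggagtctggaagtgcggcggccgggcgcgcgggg
MXD3, chr5:177312703-177313002, minus strand: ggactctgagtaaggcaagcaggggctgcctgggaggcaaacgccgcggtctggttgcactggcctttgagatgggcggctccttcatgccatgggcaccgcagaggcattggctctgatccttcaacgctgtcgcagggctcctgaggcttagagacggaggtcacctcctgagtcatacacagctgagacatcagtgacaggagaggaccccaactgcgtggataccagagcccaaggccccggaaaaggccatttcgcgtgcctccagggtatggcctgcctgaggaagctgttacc
MYCL, chr1:39901868-39902167, minus strand: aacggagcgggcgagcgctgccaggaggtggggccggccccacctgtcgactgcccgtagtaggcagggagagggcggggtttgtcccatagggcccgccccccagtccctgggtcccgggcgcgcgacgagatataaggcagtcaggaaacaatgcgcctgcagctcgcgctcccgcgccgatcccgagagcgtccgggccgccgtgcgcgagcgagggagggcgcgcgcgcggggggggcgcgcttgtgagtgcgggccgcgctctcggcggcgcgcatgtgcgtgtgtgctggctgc

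The paralogs of MYC were present at very different levels. MYCN (chromosome 2, 15940564 to 15947007 in GENCODE 29 on GRCh38), the paralog best known from neuroblastoma and other medulloblastomas, stood at 0.571, 0.213, 0.244 and 0.336 CPM in the untreated libraries, from 28, 11, 12 and 15 counts, and at 0.315, 0.424, 0.547 and 0.440 CPM in the DOX-treated ones. The groups overlap, and MYCN was above the floor of 3 counts in all 8 libraries. In the fit without a filter on low counts its log2FC was 0.32 (SE 0.31, edgeR adjusted p = 0.416). Its annotated antisense gene MYCNOS stood at 0.0463 CPM in untreated cells, at or near the floor.

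MYCL (chromosome 1, 39895426 to 39902256), a paralog amplified in some small-cell lung cancers, gave 24.96, 24.13, 24.66 and 24.99 CPM in untreated replicates 1 to 4 and 11.0, 11.6, 11.0 and 11.1 CPM in DOX-treated replicates 1 to 4. The highest DOX-treated library lay far below the lowest untreated one, and the spread within a group was 1.61% of the mean without and 2.48% with DOX, among the narrowest of the partners. The log2FC was -1.15 (SE 0.05, edgeR adjusted p = 8.31e-10), and 8.01% of all genes tested fell further. A two-sided exact permutation test of MYCL over the 70 divisions of 4 against 4 libraries gave p = 0.0286, the smallest p it allows, and so did that of each of the other called partners.

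MAX (chromosome 14, 65006174 to 65102695) was measured at 45.8, 42.7, 47.2 and 43.6 CPM without and 58.7, 55.4, 58.5 and 62.0 CPM with DOX. All DOX-treated libraries lay above all untreated ones, at a log2FC of 0.39 (SE 0.05, edgeR adjusted p = 2.52e-05), and 27.4% of all genes tested rose further. FNTB, on the other strand of the same locus and without shared exonic bases, stood at 26.3 ± 0.310 and 25.1 ± 0.822 CPM (SD, n = 4 each). The expected counts of MAX were fractional in all 8 libraries, as RSEM gives them where reads match more than 1 gene.

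Among the MAX-binding repressors, MXD3 went one way and the rest of the MXD family the other. MXD3 (chromosome 5, 177301461 to 177312757), unlike most MXD genes, is known from proliferating cells, including precursors of cerebellar granule neurons. Its RNA stood at 34.9, 41.8, 44.4 and 36.7 CPM in untreated replicates 1 to 4. With DOX it stood at 8.34, 6.21, 7.53 and 8.59 CPM. No DOX-treated library came near the untreated ones, and the log2FC was -2.36 (SE 0.11, edgeR adjusted p = 1.95e-09). The mean of MXD3 fell by 80.6%. Only 1.83% of all genes tested fell further. MXD3 shares 926 exonic bases with RAB24 on the same strand and 1158 with PRELID1 on the other, and its expected counts were fractional in all 8 libraries. RAB24 changed by a log2FC of -0.27 (SE 0.06, edgeR adjusted p = 0.00202) and PRELID1 by -0.13 (SE 0.07, edgeR adjusted p = 0.106), so neither neighbour moved as far as MXD3.

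MXD1, MXI1 and MXD4, repressors that are typically found in cells that leave the cycle or differentiate, rose together. MXD1 (chromosome 2, 69897688 to 69942945) gave 22.1, 19.1, 19.2 and 22.1 CPM without and 29.8, 31.8, 28.2 and 28.6 CPM with DOX. Its log2FC of 0.52 (SE 0.07, edgeR adjusted p = 1.88e-05) was the highest of the 9, and 21.6% of all genes tested rose further. MXI1 (chromosome 10, 110207605 to 110287365), also called MXD2, gave 50.5, 48.0, 45.5 and 47.6 CPM without and 63.9, 66.8, 64.9 and 64.0 CPM with DOX, a log2FC of 0.44 (SE 0.04, edgeR adjusted p = 2.97e-06). The groups of both genes were apart by more than their spread. MXD4 (chromosome 4, 2247432 to 2262294) was the least even of the risers with DOX (SD 10.03% of the mean) and the most even without (1.62%). It stood at 46.8, 47.4, 45.6 and 46.8 CPM in untreated cells and at 61.8, 51.1, 62.3 and 64.5 CPM with DOX, where replicate 2 was low but still above all untreated libraries. Its log2FC was 0.36 (SE 0.07, edgeR adjusted p = 0.000398). A part of the exons of MXD1, 237 bases, is also annotated as SNRNP27 on the same strand, which stood at 26.4 ± 0.916 and 27.1 ± 1.81 CPM (SD, n = 4 each).

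MNT (chromosome 17, 2384060 to 2401118), a MAX-binding repressor found in most tissues, stood at 23.9, 24.9, 24.4 and 26.0 CPM without and at 27.8, 26.2, 25.3 and 28.6 CPM with DOX. DOX-treated replicate 3 lay below untreated replicate 4. The log2FC was 0.12 (SE 0.05, edgeR adjusted p = 0.0539). It passed the threshold at 0.15 without DOX-treated replicate 3 (edgeR adjusted p = 0.0302), and over all alternatives its adjusted p ran from 0.00117 with library size only to 0.251 without a filter on low counts.

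MGA (chromosome 15, 41621224 to 41773081) combines a T-box domain with the MAX-binding domain and is a scaffold of the Polycomb complex PRC1.6. It gave 45.9, 44.5, 32.4 and 42.7 CPM without and 41.2, 41.1, 36.1 and 33.6 CPM with DOX. The groups overlap, untreated replicate 3 holds the lowest value of all 8, and the spread among untreated libraries, 14.8% of the mean, was the widest of the tested partners. The log2FC was -0.12 (SE 0.11, edgeR adjusted p = 0.306). Without untreated replicate 3 it was -0.23 (SE 0.07, edgeR adjusted p = 0.00658), and with normalization to library size only it was 0.00, so for MGA neither a call nor a direction held throughout.

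MLX (chromosome 17, 42567068 to 42573239) stood at 68.91, 65.99, 75.68 and 72.97 CPM in untreated and at 94.50, 99.98, 101.5 and 101.9 CPM in DOX-treated libraries. All DOX-treated libraries were higher, at a log2FC of 0.49 (SE 0.05, edgeR adjusted p = 4.48e-06), and 22.8% of all genes tested rose further. The promoter of MLX is the one shown with the E-box nearest to the start. Exons of MLX and of PSMC3IP, on the other strand, share 770 bases, and PSMC3IP fell, from 28.98 ± 3.69 to 10.7 ± 0.228 CPM (SD, n = 4 each). The kit marks strand, but the setting used for counting is not given in the sources used here, so reads of the shared bases may count for either gene.

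**Figure D2:**
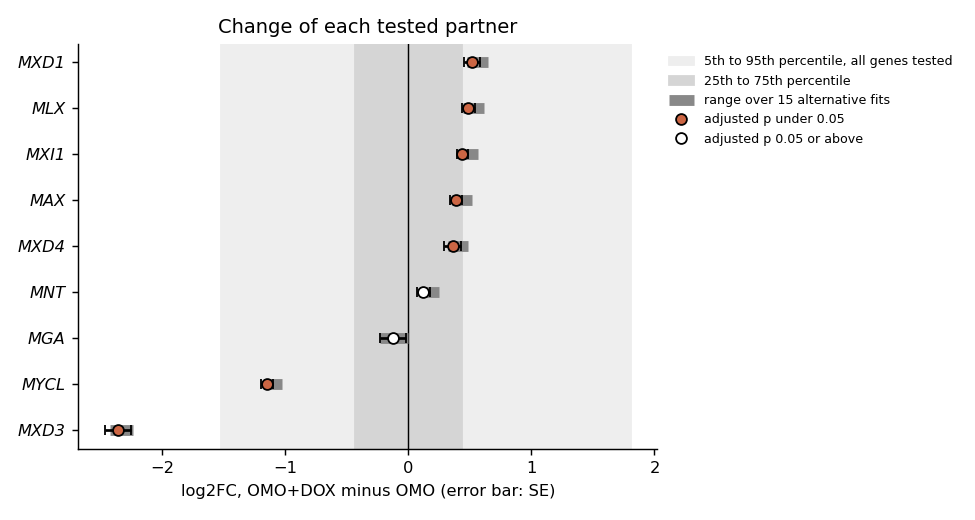
Change of the 9 tested partners as log2FC (points, with SE as error bars; red where the edgeR adjusted p is below 0.05), with a dark bar for the range over 15 alternative fits and grey bands for the spread of all genes tested. MXD3 at -2.36 lies outside the 5th to 95th percentile of all genes (-1.52 to 1.81), MYCL at -1.15 lies inside it, and the 5 risers lie between 0.36 and 0.52, near the 75th percentile of 0.44.

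Levels of different genes were compared per kilobase of annotated exon. In untreated cells MLX was the highest partner at 16.6 ± 1.01 CPM per kb, followed by MXI1 at 10.4 ± 0.450, MAX at 10.1 ± 0.469, MXD3 at 7.65 ± 0.855, MXD4 at 6.61 ± 0.107, MYCL at 4.88 ± 0.0783, MXD1 at 3.25 ± 0.272, MNT at 2.84 ± 0.103, MGA at 2.34 ± 0.347 and MYCN at 0.131 ± 0.0623 CPM per kb (SD, n = 4 each). Only the neighbours MXI1 and MAX overlapped between libraries in this order. Upon OMOMYC induction MXD3 went from rank 4 to rank 9 of the 10, at 1.49 ± 0.208 CPM per kb, and MYCL from rank 6 to rank 7, at 2.20 ± 0.0546 CPM per kb. MLX, MXI1 and MAX stayed the first 3, at 23.4 ± 0.803, 14.1 ± 0.291 and 13.2 ± 0.613 CPM per kb. With DOX the neighbours MXI1 and MAX overlapped, as did MYCL and MGA. The order depends on which length is used: per kilobase of the longest annotated transcript, MXD3 was rank 2 in untreated cells and rank 8 with DOX.

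**Figure D3:**
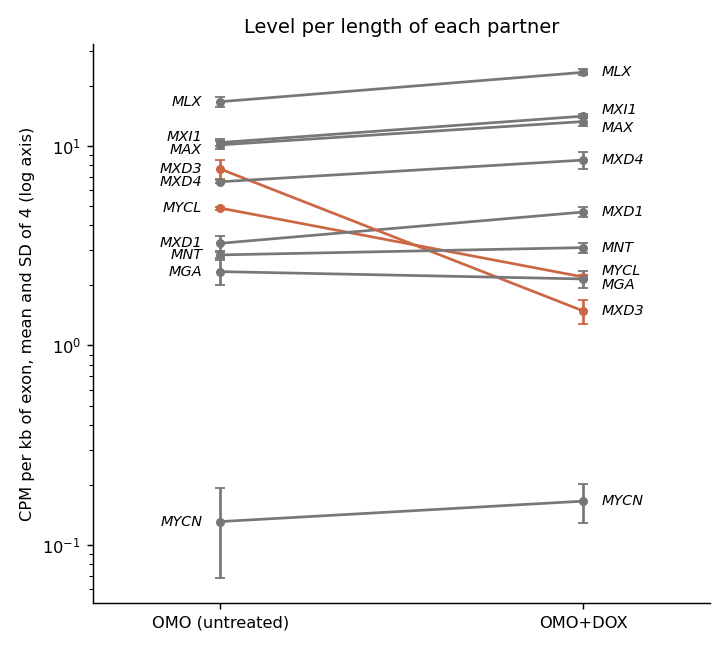
Level of each partner per kilobase of exon on a log axis, as mean and SD of the 4 libraries of each group, joined between OMO and OMO+DOX. The red lines of MXD3 and MYCL cross those of MXD1 and MNT on their way down, from 7.65 to 1.49 and from 4.88 to 2.20 CPM per kb.

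MYC RNA was far above all of them, at 313 ± 25.2 CPM per kb in untreated and 374 ± 18.9 CPM per kb in DOX-treated cells (SD, n = 4 each), any transgene reads included. Per library, the level of MYC was 30.9 ± 1.84 times that of MAX without and 28.3 ± 0.970 times with DOX, and the groups overlap. This is a ratio of RNA only. The paper reports a strong fall of MYC protein in DOX-treated D283-OMO cells, from an unreplicated Western blot. The paralogs MYCN and MYCL together reached 0.495 ± 0.0211 of the level of MAX without and 0.179 ± 0.0121 with DOX, without overlap. MLX stood at 1.65 ± 0.0761 and 1.77 ± 0.0924 times MAX, with overlap.

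The RNA of the 5 MAX-binding repressors outside MGA was then summed per kilobase. The sum was 30.7 ± 0.257 CPM per kb without and 31.8 ± 0.653 CPM per kb with DOX (SD, n = 4 each, groups overlapping), but its make-up differed. MXD3 held 24.9% ± 2.65 of the sum in untreated and 4.67% ± 0.566 in DOX-treated libraries. MXI1 went from 33.8% ± 1.56 to 44.3% ± 1.83, MXD4 from 21.5% ± 0.328 to 26.6% ± 2.21 and MXD1 from 10.6% ± 0.962 to 14.7% ± 1.06, each without overlap, while MNT stood at 9.24% ± 0.356 and 9.71% ± 0.415 with overlap (SD, n = 4 each). The summed level of MXD1, MXD4 and MXI1 was thus 2.68 ± 0.387 times that of MXD3 without and 18.6 ± 2.60 times with DOX. Set against MAX, which rose, the sum was 3.04 ± 0.153 times the level of MAX without and 2.41 ± 0.0655 times with DOX, in all 4 DOX-treated libraries lower than in any untreated one. With the longest transcript as the length, which gives MXD3 more weight, the sum went from 50.8 ± 1.10 to 46.9 ± 1.42 CPM per kb without overlap, the ratio to MAX from 3.58 to 2.53, and the ratio of MXD1, MXD4 and MXI1 to MXD3 from 1.67 to 11.5. These ratios are of RNA, and protein was not measured in these libraries.

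**Figure D4:**
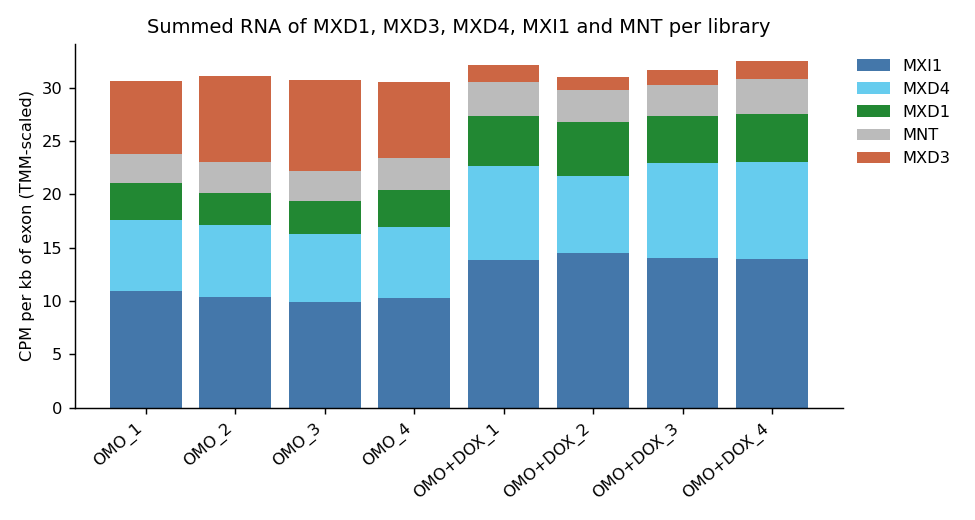
Stacked CPM per kilobase of exon of MXI1, MXD4, MXD1, MNT and MXD3 in each of the 8 libraries. The height of the bars stays between 30.5 and 32.5 CPM per kb, while the red share of MXD3 shrinks from 24.9% to 4.67% on average.

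The genes around the partners were taken from lists of related factors, and their changes were counted with the same fit, in which 38.5% of all genes tested were called up and 38.1% down. In the arm of MLX, 3 of the 4 genes examined were called up and 1 down, and with 76.6% of all genes called the count itself is no result about the arm. MLXIPL (ChREBP), which drives genes of glycolysis and fat synthesis, went from 2.43 ± 0.172 to 84.8 ± 5.89 CPM (SD, n = 4 each), from between 112 and 127 counts in untreated to between 3072 and 4601 counts in DOX-treated libraries, a log2FC of 5.13 (SE 0.08, edgeR adjusted p = 3.41e-13). MLXIP (MondoA) rose from 68.8 ± 5.82 to 92.8 ± 2.96 CPM. Of the target genes of both, ARRDC4, an arrestin-related adaptor, rose from 4.28 ± 0.0792 to 8.01 ± 0.526 CPM, and TXNIP, a brake on glucose uptake, fell from 14.8 ± 0.639 to 12.1 ± 0.245 CPM (SD, n = 4 each). These targets thus changed in opposite directions.

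MXD proteins and MNT recruit corepressors of the SIN3-HDAC and related complexes. Of 17 such genes, 9 fell, 3 rose and 5 were not called, where 38.1% of all genes fell and 38.5% rose, with a median log2FC of -0.19 against 0.01 for all genes. SAP30, a SIN3-associated subunit, fell from 15.4 ± 1.67 to 9.44 ± 0.538 CPM. SIN3B, a scaffold of the complex, rose from 55.9 ± 1.21 to 86.9 ± 3.23 CPM, and ARID4B, another subunit, from 69.0 ± 6.84 to 105 ± 5.38 CPM (SD, n = 4 each). With library size only, 7 of the 17 fell and 5 rose.

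Of 12 partners of MGA in PRC1.6, 6 fell, 2 rose and 4 were not called, with a median log2FC of -0.14 (4 rose and 5 fell with library size only). The number that rose hangs on single libraries: it was 1 without untreated replicate 1, 2 or 4 or DOX-treated replicate 3 or 4, and 3 without untreated replicate 3 or DOX-treated replicate 2. PCGF6, the subunit that defines the complex, fell from 17.7 ± 0.318 to 9.54 ± 0.417 CPM, and WDR5, CBX3 and TFDP1 fell by 0.59, 0.57 and 0.47 on the log2 scale. HDAC1 and HDAC2 belong to both of these lists. Of 10 germline genes that PRC1.6 holds silent in many cells, 7 did not reach the filter. Of the 3 that did, STAG3, a meiotic cohesin subunit, rose from 2.45 ± 0.499 to 3.90 ± 0.631 CPM, while MAEL and TDRKH, both of the piRNA pathway, fell from 1.69 ± 0.187 to 0.679 ± 0.0792 CPM and from 16.2 ± 0.992 to 10.7 ± 0.721 CPM (SD, n = 4 each). In the fit without a filter, and named after their values were seen, SYCP3, of the meiotic chromosome axis, also rose, from 0.226 ± 0.0674 to 0.614 ± 0.0870 CPM (edgeR adjusted p = 0.000115), as did DDX4, a germ cell helicase, from 0.0652 ± 0.0420 to 0.233 ± 0.0510 CPM (edgeR adjusted p = 0.00331). DDX4 is near the floor of 3 counts, with 4, 6, 2 and 1 counts in untreated replicates 1 to 4 and 9 to 12 counts with DOX. In that fit 3 germline genes rose and 2 fell, where 15230 of 36881 genes were called, 7842 up and 7388 down.

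Coactivators of MYC showed no common direction, with 5 of 12 up, 4 down and 3 not called (7 up and 3 down with library size only, 3 up and 4 down without DOX-treated replicate 1). BPTF, a chromatin remodeller subunit, rose from 202 ± 30.9 to 326 ± 23.2 CPM, and the ATPases RUVBL1 and RUVBL2 and the acetyltransferase KAT5 fell by 0.63, 0.46 and 0.33 on the log2 scale. Among 9 genes that act on the turnover of MYC protein, 3 rose, 4 fell and 2 were not called (4 rose and 3 fell with library size only). FBXW7, the ubiquitin ligase adaptor that marks MYC for destruction, rose from 25.7 ± 1.61 to 51.6 ± 0.319 CPM and GSK3B, the kinase that primes this step, from 72.6 ± 7.80 to 101 ± 4.47 CPM. AURKA, a mitotic kinase that can stabilize MYC proteins, fell from 64.1 ± 4.11 to 22.6 ± 1.73 CPM, and CIP2A, an inhibitor of the phosphatase PP2A, fell from 27.0 ± 3.31 to 13.4 ± 0.912 CPM (SD, n = 4 each).

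Of 19 canonical MYC targets, 14 fell, 3 rose and 2 were not called, with a median log2FC of -0.44, where 38.1% of all genes fell (11 fell and 3 rose with library size only). FBL and BOP1, of ribosome biogenesis, fell by 1.55 and 1.17 on the log2 scale and LDHA, the lactate dehydrogenase subunit, by 1.09, whereas NOP56, a snoRNP protein, rose from 387 ± 35.9 to 783 ± 38.1 CPM (SD, n = 4 each). Of 9 other bHLHZ factors that read E-boxes, 8 were tested, 4 rose, 2 fell and 2 were not called (5 rose and 2 fell with library size only). The counts were 4 up and 3 down without a low-count filter, with the replicate block, or without untreated replicate 2 or DOX-treated replicate 4. MITF, a master regulator of melanocytes, went from 8.66 ± 0.779 to 47.9 ± 2.45 CPM, a log2FC of 2.47 (SE 0.07), and its relatives TFEB and TFE3, regulators of lysosome genes, rose by 1.14 and 0.60. TFAP4, a known target of MYC, fell from 55.8 ± 3.68 to 31.4 ± 1.15 CPM (SD, n = 4 each).

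**Figure D5:**
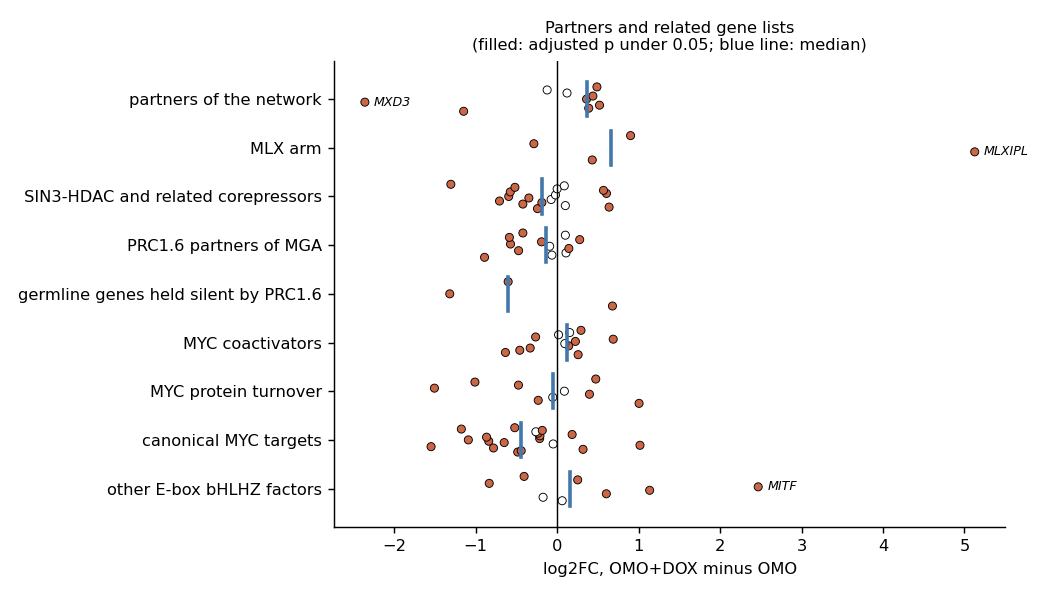
log2FC of the tested partners and of the related lists, 1 point per gene (filled where the edgeR adjusted p is below 0.05), with a blue line at each list's median. MLXIPL at 5.13 and MITF at 2.47 lie farthest to the right and MXD3 at -2.36 farthest to the left, and the canonical MYC targets have a median of -0.44.

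The genes most like MXD1 and MXD3 were looked up by the distance between log2(CPM + 1) profiles over the 8 libraries, each centred on its own mean. Nearest to MXD3 were SLC29A4, a monoamine transporter, at a distance of 0.20 and from 298 to 66.3 CPM, LIMS2, an adhesion adaptor, at 0.21, and EYA2, a transcriptional coactivator, at 0.23. Within a distance of 1 of MXD3 lay 379 genes. Nearest to MXD1 were the zinc finger gene ZNF791, the pseudogene MRPS31P5 and C2orf49, at 0.11 to 0.12. Within a distance of 1 lay 8330 genes, but at a change as small as that of MXD1 this limit also takes in genes that hardly changed. That count therefore does not tell how common such a rise is, and 21.6% of all genes tested rose further than MXD1. The distance describes these 2 groups of libraries only.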

How the data were processed

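The 8 RNA-Seq libraries were from D283-OMO cells, 4 without and 4 with DOX. Per the paper's methods and the processing notes, the authors used Trim Galore for trimming, STAR for alignment (GRCh38, GENCODE release 32) and RSEM for quantification. The authors deposited expected counts for each gene without normalization, in which RSEM divides reads that match several genes. Fractional counts were found for 8849 to 9502 genes in a library.

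Expected counts were rounded. Genes were tested if at least 4 of 8 libraries exceeded 1 CPM, with edgeR 4.0.16 in R 4.3.3 (TMM, quasi-likelihood test, no covariates, Benjamini-Hochberg adjustment over all 15222 genes). The SE is the absolute log2FC over the square root of F. Exact permutation tests used log2(CPM + 1), as did distances between profiles centred on their means, and 2-sided p cannot go below 0.0286. Symbols, coordinates and exon lengths came from GENCODE 29, which held 58561 of the 60668 identifiers, and promoters from RefSeq. Levels per kilobase divide TMM-scaled CPM by the union of exons.

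The members and the lists of related genes were chosen with earlier results of these data known, so list counts are descriptions. Named beside the members were up to 4 genes per list with the largest change among called genes without overlap, all genes of the MLX arm, CAD, NCL, overlapping genes and nearest profiles, except 1 gene that is not reported here. Alternatives were DESeq2 1.42.0, its size factors, library size only, the likelihood ratio test, other filters, a replicate block and each library left out in turn. Other steps used Python 3.11.15 with pandas 2.3.3 and numpy 2.4.6. No batch is named for the libraries.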

Additional observations from a re-analysis of the deposited data

Results flagged for a closer look

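Dixon's test was applied to 84 groups of 4 libraries (the partners, MYC and the named genes of the related lists) to find a value that stands apart. A value was marked in 4 groups, and chance alone would mark about 4.2. MYCL stood at 11.6 CPM in DOX-treated replicate 2, against 11.0 to 11.1 CPM in the others of its group, still far below the untreated libraries. ARRDC4 stood at 7.22 CPM in DOX-treated replicate 4, against 8.20 to 8.33 CPM. SIN3B stood at 54.1 CPM in untreated replicate 3, against 56.3 to 56.7 CPM, and TDRKH at 11.8 CPM in DOX-treated replicate 2, against 10.3 to 10.4 CPM.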

How the results depend on the processing

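MXD3, MYCL, MAX, MXD1, MXI1, MXD4 and MLX kept their direction and an adjusted p below 0.05 in each of 15 alternative fits, with a log2FC between -2.42 and -2.23 for MXD3, -1.17 and -1.02 for MYCL, 0.36 and 0.51 for MAX, 0.48 and 0.65 for MXD1, 0.41 and 0.57 for MXI1, 0.32 and 0.49 for MXD4 and 0.45 and 0.62 for MLX. The upper ends are those with library size only, which moved the median of all genes from 0.01 to 0.14 and gave 7157 genes up and 4715 down at an adjusted p below 0.05, against 5868 and 5793. MNT was called with library size only (0.25), with a filter of 1 CPM in over 4 libraries (0.13) and without DOX-treated replicate 3. MGA turned to 0.0029 with library size only and was called without untreated replicate 3. The cause was not tested. Over all genes, 1084 passed the study's stricter thresholds, 2097 with no filter on low counts and 562 with the stricter filter, and in both cases the number of genes tested changed. Without the filter, 5 of the 10 germline genes were called in place of 3, 3 up and 2 down, where 15230 of 36881 genes were called. Of 120 totals of called genes in the lists, 119 lay within 1.5 times the main total, but the number of risers moved further, between 1 and 4 for the PRC1.6 partners (2 as reported), 3 and 7 for the coactivators (5) and 3 and 5 for the corepressors (3). No label says whether libraries that share a replicate number were paired. Their deviations from the group means correlated across genes between -0.269 and 0.341, with a mean of 0.123 against -0.0453 for the other pairs. These values cannot decide whether the libraries were paired. With the replicate number as a block, 11805 genes were called in place of 11661, 7 partners were called as before, at a log2FC of -2.36 for MXD3, and no member's call changed. Of 26 ratios, shares and sums, 23 moved by more than 1 SD with the longest transcript as the length. Depth limits MYCN, with 11 to 28 counts per library.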
